A study of Saccharomyces cerevisiae with 12 samples.

Results

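The comparison described is that of fhf2, a UV-induced mutant of the yeast Saccharomyces cerevisiae strain Y55 labelled as fast-fermenting on maltose, with its wild-type parent. It holds every gene with an fhf2 fold change in the authors' deposited table, 5777 genes of the 5777 with values in the series, of which 5769 also have values on each array. The 3 fhf2 cultures and the 3 wild-type cultures are 6 of the 12 samples, and the other 6 are cultures of the mutants fhf1 and fhf3. Both groups carry the background given as JT20150 [MAT-alpha MAL1 SUC1], so both are of alpha mating type with a maltose and a sucrose locus. All were stirred, semi-aerobic fermentations of 200 mL in rich medium with 20% maltose at 22 °C, started from a pre-culture grown on glucose. Cells were taken on day 2, and polyadenylated RNA was read as Cy3-labelled cDNA on single-colour NimbleGen arrays. The fhf2 group is a single mutant isolate whose mutated gene is not named in the sources used here. Since each strain was sampled at that day only, the genotype and the progress of the fermentation cannot be told apart. The probes were designed on another strain, S288C, and this holds for both groups.

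Maltose enters yeast through a proton-coupled permease and is split by maltase into glucose, which glycolysis turns into ethanol. Glucose keeps genes for other carbon sources, for respiration and for the stress response low, and as sugar becomes short these genes are induced by regulators such as Adr1, Cat8 and Msn2. Cells that stop growing make less of the ribosome and more of the proteins that guard resting cells and spores, whereas poor nitrogen sources such as proline, urea and allantoin are used once preferred ones are gone.

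The deposited array values were not on a common scale. Their median log2 signal was 12.66, 12.70 and 12.66 in fhf2 replicates 1 to 3, against 12.30, 12.98 and 12.53 in wild-type replicates 1 to 3. The fhf2 arrays were thus nearly level with each other, while wild-type replicate 2 stood above and wild-type replicate 1 below all of them. Results are therefore given on the values as deposited, which are the basis of the authors' fold changes, and after quantile normalization, which gives every array the same distribution. Over all genes the median log2 fold change was 0.10 as deposited and 0.03 after quantile normalization, and the median residual SD per gene was 0.306 and 0.154 on these scales. Pearson correlations over genes were 0.9894 to 0.9912 between fhf2 arrays, 0.9606 to 0.9708 between fhf2 and wild-type arrays, and 0.9671 to 0.9823 between wild-type arrays.

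**Figure D1:**
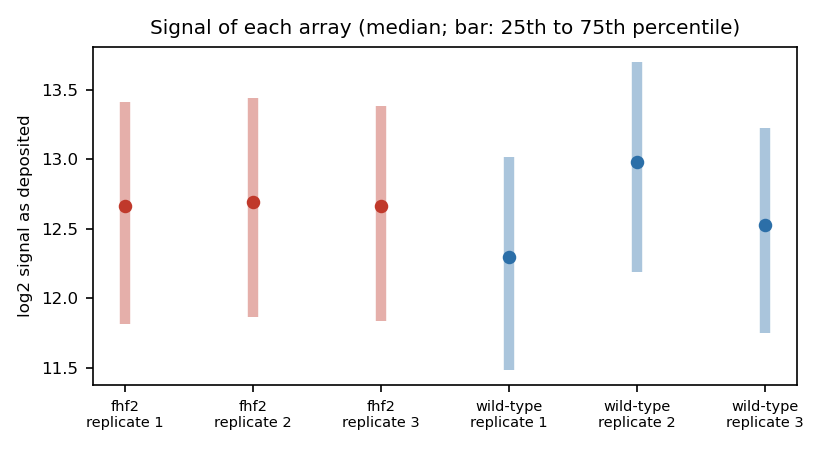
Log2 signal as deposited on the 3 fhf2 arrays (left, red) and the 3 wild-type arrays (right, blue), with points for the median over 5769 genes and bars from the 25th to the 75th percentile. The fhf2 medians lie between 12.66 and 12.70, and the wild-type medians between 12.30 and 12.98.

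In fhf2 more genes fell than rose, and the falls were larger. The largest were in SPG4 of stationary phase, SPS100 and AQY1 of spores, YDL218W, and SDH9, a minor succinate dehydrogenase. On values as deposited, 13 genes rose (0.225% of those tested) and 46 fell (0.797%) at an adjusted p under 0.05, together 59 (1.02%). After quantile normalization 135 genes were higher (2.34%) and 253 lower (4.39%), together 388 (6.73%), and these include all 13 rises and all 46 falls called on values as deposited. Centred on the median gene, 90 were higher (1.56%) and 287 lower (4.97%). At an unadjusted p under 0.05, 293 genes (5.08%) passed as deposited and 1171 (20.3%) after quantile normalization. Changes beyond 2-fold by limma's test against that size were 0 rises and 9 falls (0.156%), although 8 genes were above and 38 below that size by their fold change alone. The 9 falls are also the 9 genes called in the authors' deposited table. After quantile normalization the 2-fold test gave 0 rises and 22 falls (0.381%). Below, "rose" and "fell" are used of genes that passed on values as deposited, and a gene or count that passed only on the other scale is said to have passed after quantile normalization. The arrays of the groups did not overlap as deposited for 12 of the 13 rises and 45 of the 46 falls, the exceptions being HUG1 and SWI5. After quantile normalization they overlapped for 0 of the genes called on that scale, which include HUG1 and SWI5. Among all genes, fhf2 lay wholly above wild-type for 349 (6.05%) and wholly below it for 256 (4.44%) as deposited. After quantile normalization these were 748 (13.0%) and 723 (12.5%).

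The counts depended on single wild-type arrays. Without wild-type replicate 2 there were 66 rises and 38 falls as deposited, and without wild-type replicate 1 there were 4 rises and 73 falls. After quantile normalization the same omissions gave 163 rises with 258 falls, and 102 rises with 232 falls. Falls outnumbered rises in each of the 20 fits run but the one on deposited values without wild-type replicate 2. Of the 59 calls, between 8 and 21 were lost with the omission of a single array as deposited, and between 1 and 4 after quantile normalization.

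The falls were spread over the range of wild-type signal, with 9, 10, 12 and 15 of them in the quartiles from dim to bright. The rises were 7, 5, 0 and 1 in the same quartiles. Wild-type signal is itself part of the fold change. The mean of all 12 arrays holds the fhf2 arrays as well as those of fhf1 and fhf3, so a gene low in the mutants is ranked dimmer by it. By the mean of all 12 arrays, the signal level of the authors' table, the falls were 32, 9, 4 and 1 and the rises 7, 0, 5 and 1 in the quartiles from dim to bright, so that the distribution depended on the ranking.

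**Figure D2:**
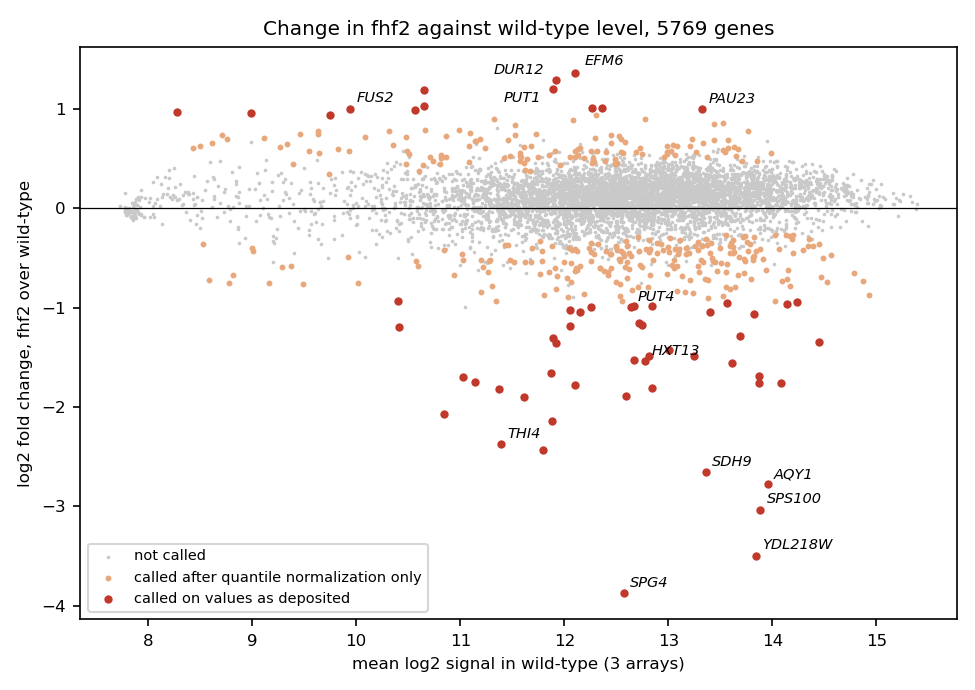
Log2 fold change of fhf2 over wild-type on values as deposited (vertical axis) against the mean log2 signal of the 3 wild-type arrays (horizontal axis) for 5769 genes, with genes called as deposited in red and those called after quantile normalization only in orange. The falls reach -3.87 for SPG4, while the largest rise, EFM6, is at 1.36.

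The gene with the largest fall was SPG4 (YMR107W), which is needed for survival of heat in stationary phase. Its log2 signal was 8.46, 9.01 and 8.63 in fhf2, against 12.12, 13.15 and 12.45 in wild-type. Every fhf2 culture was far below every wild-type culture, a 14.7-fold difference in mean signal (log2 fold change -3.87 ± 0.27, SE, n = 3 each, adjusted p = 1.30e-28). Fold changes below are on the log2 scale, and ± gives the SE from limma with n = 3 in each group. limma draws the spread of a gene toward that shared by all genes in the 4 groups. As deposited this left the SE between 0.259 and 0.287 for every gene, against 0.088 to 0.440 after quantile normalization. The SE and adjusted p as deposited are therefore not measures of a gene's own spread over cultures, which the printed array values show. YDL218W, a gene of unknown function, came next, at 10.35, 10.27 and 10.41 in fhf2 and 13.60, 14.11 and 13.80 in wild-type. It was bright in all wild-type cultures and lower in all fhf2 cultures by -3.50 ± 0.26 (adjusted p = 3.09e-25).

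Next were a pair of genes known from spores. SPS100 (YHR139C), which acts in the maturation of the spore wall, gave 10.76, 10.96 and 10.83 in fhf2, against 13.79, 14.04 and 13.83 in wild-type, a fold change of -3.03 ± 0.27 (adjusted p = 7.49e-20). AQY1 (YPR192W), a water channel known from spores, gave 11.23, 11.39 and 10.91 in fhf2, against 13.64, 14.25 and 13.98 in wild-type, a fold change of -2.78 ± 0.27 (adjusted p = 2.01e-16). In both, the cultures of a strain were close together and the strains were well separated. Of 44 listed genes of meiosis and sporulation, SPS100 alone fell and 0 rose, with a median of 0.13 as deposited and 0.09 after quantile normalization. That list does not hold AQY1, nor SHC1, which fell, and SLZ1, which rose, both described below. After quantile normalization 3 were higher and 4 lower, among them GAS4 at 0.78 and SPS4 at -0.66.

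The thiamine gene THI4 (YGR144W), which makes the thiazole ring of the vitamin, had 8.86, 9.09 and 9.08 in fhf2, against 11.02, 11.63 and 11.51 in wild-type. The groups were clearly apart, with a fold change of -2.38 ± 0.26 (adjusted p = 1.71e-13). PHO3 (YBR092C), the acid phosphatase that cleaves thiamine phosphates outside the cell, fell by 1.30 on the log2 scale, with 10.63, 10.51 and 10.62 in fhf2, against 10.94, 12.61 and 12.12 in wild-type. Wild-type replicate 1 was near the fhf2 values and the other wild-type cultures were well above them. The other members of the 22 thiamine and pyridoxine genes did not pass on values as deposited. After quantile normalization 6 were lower and 1, THI22 at 0.68, was higher, and the lower ones include THI5, THI11, THI12 and THI13, near-identical copies whose probes may not tell them apart, at -0.49 to -0.46.

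The remaining 7 of the 12 largest falls were SDH9, described below, and short or little studied genes. Those other than SDH9 had log2 fold changes of -2.43 for YCL048W-A, -2.14 for YKL107W, -2.08 for YKL106C-A, -1.90 for YMR175W-A, -1.89 for DPA10 and -1.82 for YBR221W-A. The wild-type means of these 6 lay between 10.85 and 12.60. Of these, YMR175W-A had the widest spread in fhf2, at 9.57, 10.17 and 9.40, against 11.33, 11.97 and 11.54 in wild-type, and still did not overlap.

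**Figure D3:**
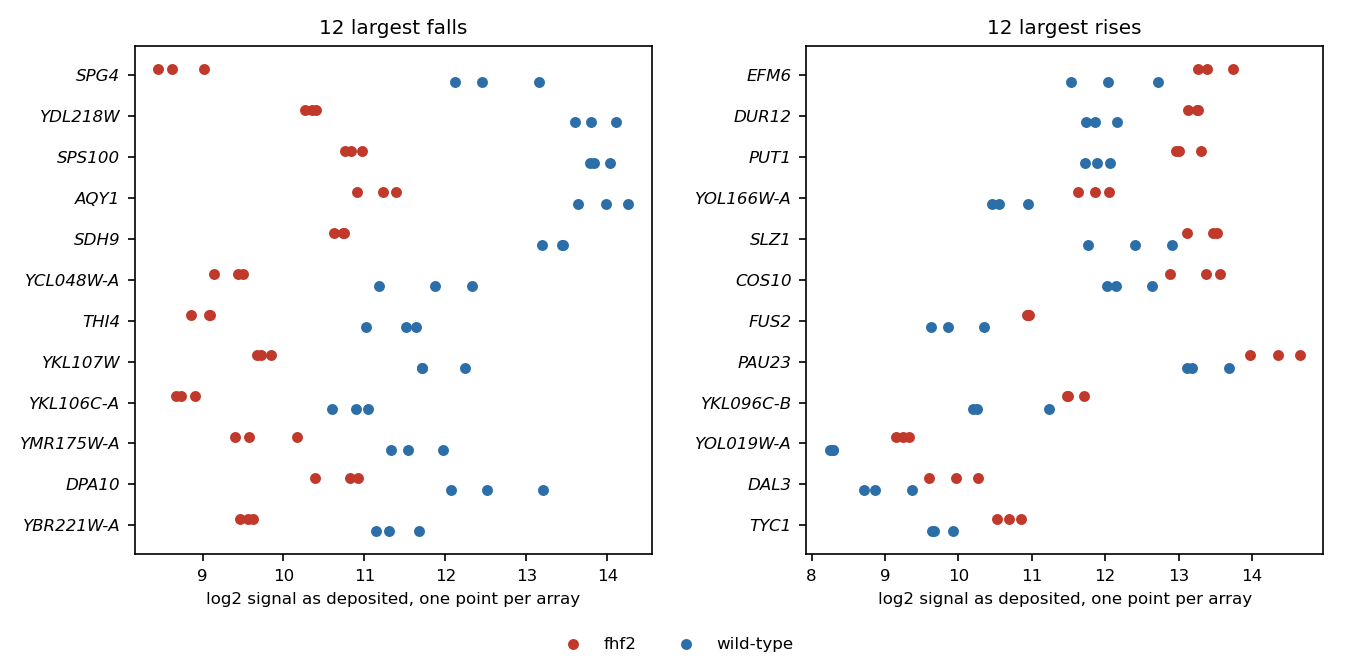
Log2 signal as deposited of the 12 largest falls (left panel) and the 12 largest rises (right panel), a point per array, with fhf2 in red and wild-type in blue. In each row the 3 fhf2 points lie on one side of the 3 wild-type points, as the choice of these genes required.

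The largest rise was in EFM6 (YNL024C), a methyltransferase that modifies translation elongation factor eEF1A. It gave 13.26, 13.74 and 13.39 in fhf2, against 11.53, 12.72 and 12.04 in wild-type. The strains did not overlap, although wild-type cultures differed widely among themselves (fold change 1.36 ± 0.27, adjusted p = 0.000181). FUS2 (YMR232W), which acts in cell fusion during mating, gave 10.93, 10.96 and 10.95 in fhf2, against 9.62, 10.35 and 9.86 in wild-type. The fhf2 cultures were almost equal and all higher, by 1.00 ± 0.26 (adjusted p = 0.0249). PAU23 (YLR037C), a seripauperin of the anaerobic cell wall, gave 13.98, 14.65 and 14.36 in fhf2, against 13.18, 13.69 and 13.12 in wild-type, again without overlap (1.00 ± 0.27, adjusted p = 0.0285). It was the only 1 of 31 anaerobic and hypoxic genes to rise, on either scale, and 0 of them fell. EFM6 passed in each omission of an array, PAU23 did not pass without fhf2 replicate 2 or 3 or wild-type replicate 1 or 3, and after quantile normalization both passed in all.

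Other rises were SLZ1 (1.01), a leucine zipper protein of sporulating cells, the subtelomeric COS10 (1.01), and the small or uncharacterised genes YOL166W-A (1.19), YKL096C-B (1.00), YOL019W-A (0.97) and TYC1 (0.94). HUG1 (YML058W-A), an inhibitor of ribonucleotide reductase made after DNA damage, rose by 1.03, but its values of 11.37, 11.68 and 11.99 in fhf2 overlapped those of 9.97, 11.43 and 10.56 in wild-type. It alone of 33 genes of DNA damage and ribonucleotide reductase rose and 0 fell, and after quantile normalization DIN7 at 0.70 and UNG1 at 0.47 were also higher and RAD53 at -0.60 was lower. As deposited the rises of TYC1, YKL096C-B and YOL019W-A were lost whichever fhf2 replicate was left out and without wild-type replicate 1 or 3, and those of SLZ1 and HUG1 without fhf2 replicate 2 or 3 or wild-type replicate 1 or 3. COS10 was lost without fhf2 replicate 1 or 2 or wild-type replicate 1 or 3, YOL166W-A without fhf2 replicate 2 or wild-type replicate 3. HUG1 was lost without the same 4 arrays after quantile normalization as well.

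Several falls were in minor isoforms of enzymes whose main form did not pass the test. The genes of this paragraph beyond SDH9, SHH4, PMA2, NDE2 and SSA3 were chosen after their values were seen. SDH9 (YJL045W), a minor form of the succinate dehydrogenase flavoprotein, gave 10.75, 10.74 and 10.62 in fhf2, against 13.19, 13.44 and 13.45 in wild-type, a fold change of -2.66 ± 0.27 (adjusted p = 5.81e-16). Its values were tight in both strains and far apart. SHH4 (YLR164W), a homologue of the membrane anchor Sdh4, fell by 1.53 on the log2 scale, and SHH3, a homologue of Sdh3, was at -0.81 as deposited and passed at -0.94 after quantile normalization. The main subunit genes were at 0.20 for SDH1, 0.05 for SDH2, 0.32 for SDH3 and 0.37 for SDH4 as deposited, and at 0.08, -0.10, 0.20 and 0.24 after quantile normalization, none past the test on either scale. PMA2 (YPL036W), the minor plasma membrane proton pump, gave 13.21, 13.06 and 13.05 in fhf2, against 14.28, 14.71 and 14.36 in wild-type. It fell by 1.34 on the log2 scale without overlap, while PMA1, the main pump, was at 0.17 and did not pass. NDE2 (YDL085W), an external NADH dehydrogenase of mitochondria, fell by 1.56. It was the only 1 of 37 respiratory chain and ATP synthase genes to pass, on either scale. Likewise SSA3, a heat shock protein 70 of resting cells, fell by 1.69, and it was the only 1 of 29 heat shock chaperones to fall as deposited, where 0 rose. After quantile normalization SSA4, another Hsp70, was also lower at -0.56 and BTN2 was higher at 0.83. ECM10, a relative of an Hsp70 that fell and is described below, is outside that list. Probes of related genes may cross-hybridise, which was not tested.

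PCK1 and SFC1, genes used for growth on carbon other than sugar, fell in fhf2, and most of the pathway around them did not pass the test. PCK1 (YKR097W), the phosphoenolpyruvate carboxykinase that opens gluconeogenesis, gave 11.22, 11.44 and 11.29 in fhf2, against 12.62, 12.87 and 12.95 in wild-type (-1.49 ± 0.26, adjusted p = 1.24e-05). SFC1 (YJR095W), the mitochondrial carrier exchanging succinate for fumarate, gave 10.12, 10.28 and 10.24 in fhf2, against 11.67, 12.05 and 11.90 in wild-type (-1.66 ± 0.26, adjusted p = 5.10e-07). Both were lower in every fhf2 culture, and they are the 2 genes that fell of 23 in gluconeogenesis and the glyoxylate cycle. None of that list rose. After quantile normalization 6 were lower, with MLS1, malate synthase, at -1.01 and MDH2, cytosolic malate dehydrogenase, at -0.82, and 1 was higher, DAL7 at 0.91, a malate synthase gene of allantoin use. The list's median was -0.02 as deposited and -0.12 after quantile normalization, beside 0.10 and 0.03 for all genes.

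Of 17 genes of peroxisomal beta-oxidation, which breaks down fatty acids, only POT1 (YIL160C), the thiolase, fell, by 0.96 on the log2 scale, and 0 rose. After quantile normalization POT1, CTA1, FOX2 and ANT1 were lower, at -1.12 to -0.53, and the list's median was -0.25, against -0.14 as deposited. The call of POT1 was lost whichever fhf2 replicate was left out and without wild-type replicate 3. The regulators CAT8 and ADR1 were lower only after quantile normalization, at -0.66 and -0.58, among 27 genes of glucose repression and its regulators, of which 0 rose and 0 fell as deposited. Of the same list TOS3, a kinase acting on Snf1, at 0.48 and STD1 at 0.47 were higher on the same scale.

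No gene of maltose use passed the test. Of 13 measured genes of maltose and sucrose use, 0 rose and 0 fell as deposited, with values from -0.36 for the isomaltase gene IMA2 to 0.55 for the invertase gene SUC2. Since only 1.02% of all genes were called on that scale, 0 calls in so short a list do not show that these genes were unchanged. After quantile normalization SUC2 was higher, at 0.46, and no other member passed. The maltose permease genes MAL11 and MAL31 were at -0.02 and 0.05, and the maltase genes MAL12 and MAL32 at 0.13 and 0.25 as deposited. MAL11 was at 7.75 in fhf2 and 7.78 in wild-type, close to the lowest signals on the arrays, so that a difference was not detectable there. MAL12 and MAL32 are near-identical copies, while MAL11 is a more distant relative of MAL31 in S288C, and which of them the Y55 locus matches is not given in the sources used here. Of 28 genes of glycolysis and alcohol formation, 0 passed as deposited, and after quantile normalization PDC6, a minor pyruvate decarboxylase, at -0.92 and HXK2, the main hexokinase, at -0.77 were lower.

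Among 18 hexose transporters and sensors 3 fell and 0 rose. HXT13 (YEL069C), which carries sugar alcohols as well as hexoses, gave 11.28, 11.39 and 11.05 in fhf2, against 12.43, 13.30 and 12.61 in wild-type (-1.54 ± 0.27, adjusted p = 8.21e-06). HXT5 (YHR096C), a transporter of slowly growing cells, gave 11.64, 11.88 and 11.76 in fhf2, against 13.16, 13.47 and 13.11 in wild-type (-1.49 ± 0.26, adjusted p = 1.24e-05). HXT17 (YNR072W), a close relative of HXT13, fell by 1.02, with 10.80, 11.14 and 11.16 in fhf2, against 11.82, 12.51 and 11.84 in wild-type. In all 3 genes each fhf2 culture was below each wild-type culture. As close relatives HXT13 and HXT17 may share signal, which was not tested. The call of HXT17 was lost whichever fhf2 replicate was left out and without wild-type replicate 2, and those of HXT13 and HXT5 were kept in all such omissions. HXT3, a low-affinity transporter, passed after quantile normalization at -0.50, and the other 14 members passed on neither scale, with deposited values from -0.22 for HXT4 to 0.31 for HXT10. HXT13 and HXT17 each lie beside a gene for a mannitol dehydrogenase, DSF1 and MAN2, which were at -0.78 and -0.73 as deposited and passed after quantile normalization at -0.93 and -0.87. DSF1 and MAN2 were chosen after their values were seen, and as close copies of each other they may share signal.

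Of 54 general stress genes, which are induced in many conditions that slow growth, 4 fell and 0 rose, these being SPG4, SPG1 (YGR236C) at -1.76, GRE1 (YPL223C), a hydrophilin, at -1.35, and ALD2 (YMR170C), a cytosolic aldehyde dehydrogenase, at -1.28. SPG1 gave 12.11, 12.72 and 12.16 in fhf2, against 13.52, 14.64 and 14.10 in wild-type, and ALD2 gave 12.44, 12.35 and 12.42 in fhf2, against 13.65, 13.74 and 13.66 in wild-type, both without overlap. After quantile normalization 10 were lower and 0 higher, among them HBT1 at -1.05 and HSP12, a membrane-stabilising protein, at -0.82. The median of the list was 0.01 as deposited and turned to -0.12 after quantile normalization, beside 0.10 and 0.03 for all genes. Of 33 oxidative stress genes 1 fell and 0 rose, SRX1 (YKL086W), the sulfiredoxin that repairs peroxiredoxins, at -1.19, and after quantile normalization CTA1 at -0.63 and HYR1, a thiol peroxidase, at -0.52 were lower too, with 0 higher. Of 21 trehalose and glycogen genes 0 passed as deposited, and GLG2, a glycogenin that primes glycogen, was lower after quantile normalization at -0.97.

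Other falls were FMP45 at -1.76, YOR186W at -1.81, DPC7 at -1.77, ECM12 at -1.75, YHR022C at -1.69, LPX2 at -1.43, GTO3, a glutathione transferase, at -1.19, and ECM10, a mitochondrial relative of the Hsp70 Ssc1, at -1.05. ICS2 at -1.06, SHC1, an activator of chitin synthesis in sporulating cells, at -1.04, FMP48 at -0.95 and MIN4 at -0.94 complete those outside the lists, with the enolase-related genes ERR1 at -1.18 and ERR3 at -1.15. ERR1 and ERR3 are near-identical copies, so their values are not separate evidence. ECM12 and YHR022C overlap on the genome, and YKL107W and YKL106C-A are neighbours, so members of these pairs may also share transcripts or probes, which was not tested. As deposited the falls of FMP48 and MIN4 were lost whichever fhf2 replicate was left out and without wild-type replicate 2 or 3, and that of SHC1 whichever fhf2 replicate was left out and without wild-type replicate 3. ECM10 was lost without fhf2 replicate 1 or 3 or wild-type replicate 3, ICS2 without fhf2 replicate 1 or 3 or wild-type replicate 2, and ERR1 and ERR3 without fhf2 replicate 3.

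In fhf2, 3 genes for the use of poor nitrogen sources rose and the proline permease gene fell. DUR12 (YBR208C), the urea amidolyase, gave 13.13, 13.26 and 13.26 in fhf2, against 11.74, 12.16 and 11.87 in wild-type (1.29 ± 0.26, adjusted p = 0.000364). PUT1 (YLR142W), the proline oxidase of mitochondria, gave 12.97, 13.01 and 13.31 in fhf2, against 11.72, 12.07 and 11.89 in wild-type (1.20 ± 0.26, adjusted p = 0.00151). DAL3 (YIR032C), ureidoglycolate lyase of allantoin use, gave 9.97, 10.26 and 9.61 in fhf2, against 8.72, 9.37 and 8.86 in wild-type (0.96 ± 0.27, adjusted p = 0.0464). All 3 were higher in every fhf2 culture, with DAL3 the closest to overlap. PUT4 (YOR348C), which imports proline, gave 11.86, 11.73 and 11.37 in fhf2, against 12.31, 12.78 and 12.84 in wild-type, lower without overlap (-0.99 ± 0.27, adjusted p = 0.0349).

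These 3 rises and 1 fall were among 39 genes under nitrogen catabolite repression, the control that keeps such genes low while good nitrogen is present. After quantile normalization 6 were higher and 1 lower, the added ones being DAL7 at 0.91, AGP1, an amino acid permease, at 0.76, and MEP3, an ammonium permease, at 0.67. The list's median was 0.21 as deposited and 0.10 after quantile normalization, beside 0.10 and 0.03 for all genes. PUT2, the enzyme after Put1 in proline breakdown, was at 0.39 and passed on neither scale, and DUR3, the urea transporter, was at 0.15. DUR12 passed in each omission of an array and PUT1 in each but that of fhf2 replicate 3. DAL3 did not pass without fhf2 replicate 1 or 2 or wild-type replicate 1 or 3, nor when centred, and the same 4 omissions ended its call after quantile normalization. PUT4 did not pass whichever fhf2 replicate was left out, nor without wild-type replicate 3.

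Lysine synthesis held the only call among 67 genes of amino acid synthesis. LYS20 (YDL182W), homocitrate synthase of the first step, gave 12.44, 12.71 and 12.67 in fhf2, against 13.24, 13.92 and 13.53 in wild-type (-0.96 ± 0.27, adjusted p = 0.0411). It was lower in every fhf2 culture, but as deposited the call was kept only without wild-type replicate 1 when single arrays were left out. After quantile normalization it was kept in all such omissions. After quantile normalization LYS20 at -1.08, LYS9 at -0.56 and LYS12 at -0.42 were lower, while LYS1, LYS2, LYS4 and the isozyme LYS21 lay between -0.34 and -0.13 and did not pass. In all, 6 genes of the list were then lower, with ARG1 at -0.68 and ARG3 at -0.60 of arginine synthesis, and 2 higher, one being the glutamate dehydrogenase gene GDH1 at 0.58. Of 35 genes of sulfur and methionine 0 passed as deposited, and 10 were lower and 0 higher after quantile normalization, among them SAM3, the S-adenosylmethionine permease, at -0.74 and MET14 at -0.66.

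Ribosomal protein genes of the cytosol had the lowest median of the 41 lists on both scales when all arrays were used. Of 131 genes only RPS22A fell, at -0.98, and 0 rose as deposited, whereas 30 were lower and 0 higher after quantile normalization, among them RPL22B at -0.92, RPL9A at -0.87 and RPL11A at -0.85. The median of the list was -0.31 as deposited and -0.43 after quantile normalization, and 116 members on the first scale and 129 on the second lay below 0, beside 1765 and 2526 of 5769 genes in all. On the normalized arrays the median signal of the list was 13.08, 13.01 and 13.14 in fhf2, against 13.30, 13.67 and 13.44 in wild-type. The strains were apart on that measure, and wild-type replicate 2, the brightest array, was highest. Without that array the median was -0.01 as deposited, with 0 members passing, and -0.31 after quantile normalization, with 12 lower and 0 higher. The list was then no longer the lowest. Ribosome biogenesis was at -0.03 as deposited, and peroxisomal beta-oxidation was at -0.32 after quantile normalization. Over the 6 omissions of single arrays the count after quantile normalization ran from 4 to 41. Many of these genes are pairs of near-identical copies, so members share signal. The call of RPS22A was lost whichever fhf2 replicate was left out and without wild-type replicate 2 or 3.

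Ribosome biogenesis genes also had a median below that of all genes. Of 91 genes 0 passed as deposited, and 12 were lower and 0 higher after quantile normalization, led by NSR1 at -0.76, HAS1 at -0.67 and DBP2 at -0.58, which act in the processing of ribosomal RNA. The median was -0.22 as deposited and -0.29 after quantile normalization. The list's median signal on the normalized arrays was 11.83, 11.70 and 11.72 in fhf2, against 12.12, 11.94 and 12.01 in wild-type, so the strains did not overlap. Without wild-type replicate 2 the medians were -0.03 and -0.30 on these scales, with 0 and 18 members lower. Of 21 subunit genes of RNA polymerases I and III, RPA49 at -0.69 and RPA43 at -0.53 were lower after quantile normalization only.

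Ribosomal proteins of mitochondria lay on the other side of the median gene. Of 74 genes 0 passed as deposited, and 3 were higher and 0 lower after quantile normalization, MRP1 at 0.56, MRPL17 at 0.43 and MRPL7 at 0.42. The median was 0.29 as deposited and 0.23 after quantile normalization. On the normalized arrays the list's median signal was 12.80, 13.00 and 12.95 in fhf2, against 12.51, 13.03 and 12.57 in wild-type. Here the strains overlapped, since wild-type replicate 2 was above every fhf2 array, and without it 6 genes rose as deposited and 8 were higher after quantile normalization.

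**Figure D4:**
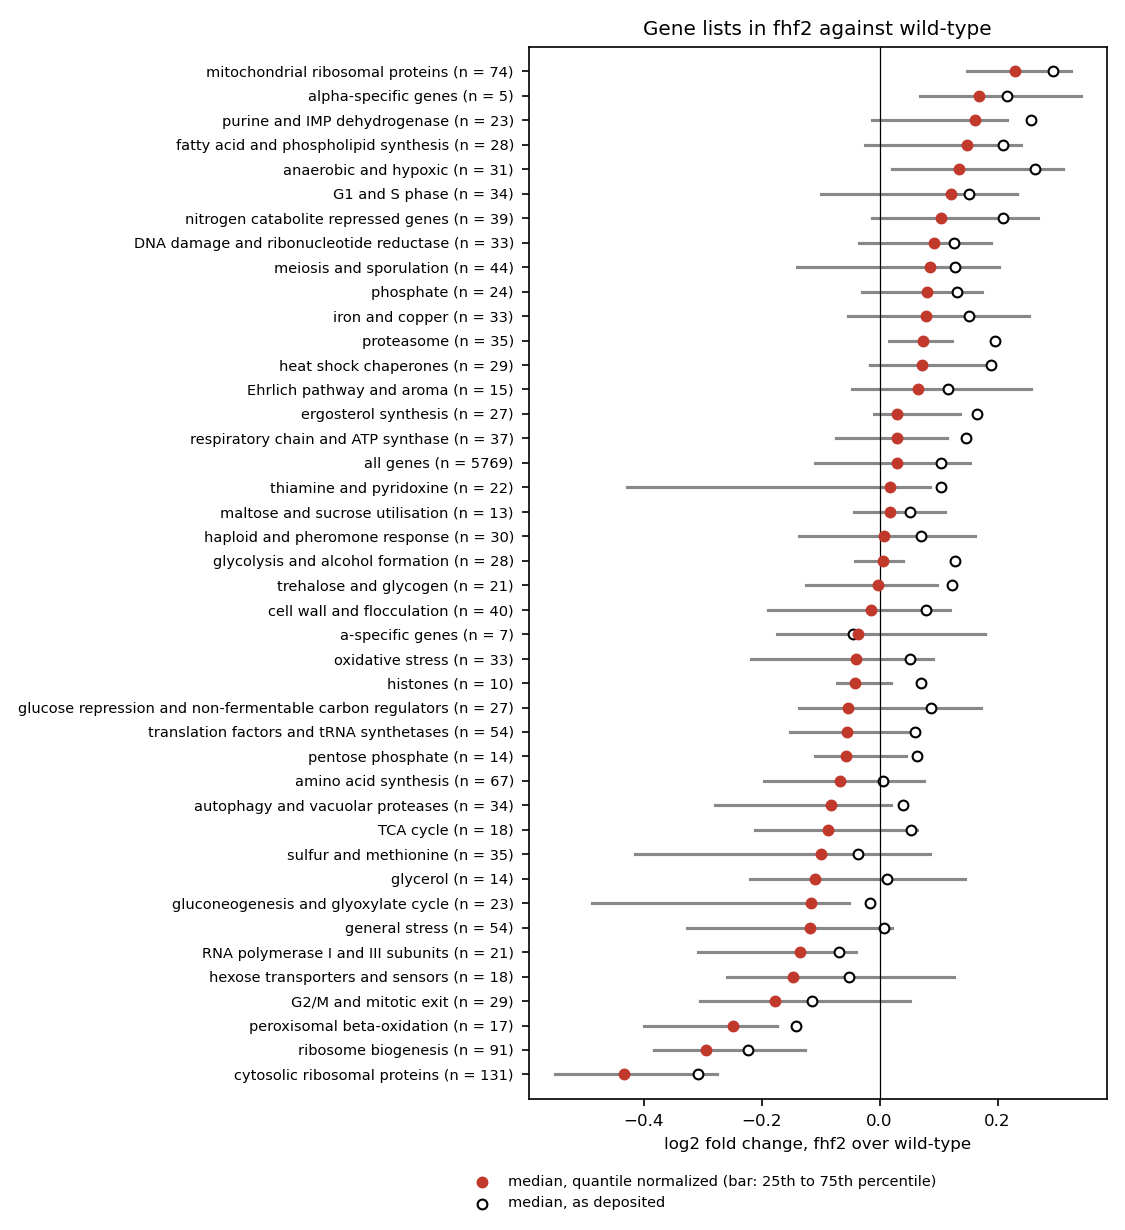
Median log2 fold change of fhf2 over wild-type for 41 gene lists and for all genes, with filled points and bars (25th to 75th percentile) after quantile normalization and open points on values as deposited. Cytosolic ribosomal proteins are lowest, at -0.43 and -0.31 on these scales, and mitochondrial ribosomal proteins highest, at 0.23 and 0.29, while all genes together are at 0.03 and 0.10.

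Calls among genes of growth and mating stand beside shares called over all genes of 1.02% as deposited and 6.73% after quantile normalization. Of 29 genes of G2/M and mitotic exit SWI5 (YDR146C), a transcription factor for genes of early G1, fell by 1.00 on the log2 scale, with 11.30, 10.88 and 11.61 in fhf2, against 11.56, 13.01 and 12.21 in wild-type. The lowest wild-type value lay within the fhf2 range as deposited, and the call was lost with the omission of any array but fhf2 replicate 3 or wild-type replicate 1. After quantile normalization SWI5 was lost without fhf2 replicate 2 or wild-type replicate 2 or 3, and HOF1 at -0.88 and HST3 at -0.88 were also lower on that scale, with 0 members higher on either. Of 34 genes of G1 and S phase 0 passed as deposited, and YOX1, a repressor of early cell cycle genes, was lower after quantile normalization at -0.74. Of 40 genes of the cell wall and flocculation CWP1 (YKL096W), a mannoprotein of the wall, fell by 0.98, and EGT2 at -0.93 and FLO11, a flocculin, at -0.88 were lower after quantile normalization only. The call of CWP1 depended on the same arrays as that of RPS22A. Of 30 haploid and pheromone response genes FUS2 rose and 0 fell as deposited, and PRM1, also of cell fusion, was higher after quantile normalization at 0.87, while RME1 at -0.65 and PRM5 at -0.57 were lower.

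The defining markers of alpha cells were measured in both strains, and none differed by the test on either scale. Mean log2 signals of MF(ALPHA)1, the pheromone gene, were 14.37 in fhf2 and 13.86 in wild-type, and those of SAG1, the alpha agglutinin, were 14.56 and 14.34 in the same order. The summed signal of 4 alpha-specific markers was 15.91 to 16.01 on the log2 scale in fhf2 and 15.27 to 16.10 in wild-type. That of 7 a-specific markers was 13.55 to 13.77 in fhf2 and 13.51 to 14.32 in wild-type, and of these MFA1 at -0.69 and AGA2 at 0.53 passed after quantile normalization. Of 5 markers of sporulating diploids only SPS100 fell as deposited, SPS4 was lower and SPO11 higher after quantile normalization, and DIT1 and NDT80 passed on neither scale. Signals of different genes come from different probes and are not set against each other. In a bulk culture fewer cells with a transcript and less of it per cell cannot be told apart.

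Whether these changes are particular to fhf2 was asked by testing fhf2 directly against fhf1 and fhf3, UV-induced fast fermenters of the same parent. Against fhf1, fhf2 was higher in 10 genes (0.173%) and lower in 8 (0.139%) as deposited, and after quantile normalization higher in 46 (0.797%) and lower in 45 (0.78%). Against fhf3, it was higher in 1862 genes (32.3%) and lower in 145 (2.51%) as deposited, but after quantile normalization higher in 1288 (22.3%) and lower in 1371 (23.8%). The excess of higher genes against fhf3 thus depended on the scale of the arrays. The other mutants are set against the same wild-type arrays, so that their fold changes are not independent of those in fhf2. Over the 46 falls the median log2 fold change over wild-type as deposited was -1.51 in fhf2, -1.53 in fhf1 and -2.76 in fhf3. Over the 13 rises it was 1.01 in fhf2, 1.03 in fhf1 and 0.54 in fhf3. SPG4 was at -3.87 in fhf2, -3.59 in fhf1 and -4.30 in fhf3, and AQY1 at -2.78, -2.66 and -5.75 in the same order. Both genes were thus low in all mutants, with AQY1 lowest in fhf3. In the direct tests as deposited, 4 of the 59 genes differed between fhf2 and fhf1 and 38 between fhf2 and fhf3. A difference from fhf3 can therefore be one of size in a change that both mutants had.

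FUS2 was the only gene that rose against wild-type and was also higher than in both other mutants as deposited, by 1.22 ± 0.26 over fhf1 (adjusted p = 0.0100) and by 2.03 ± 0.26 over fhf3 (adjusted p = 5.99e-11). Its deposited signal was 10.93 to 10.96 in fhf2, 9.24 to 10.03 in fhf1, 8.66 to 9.19 in fhf3 and 9.62 to 10.35 in wild-type, so that no other strain reached the fhf2 range. As deposited the call of FUS2 against wild-type was kept only without wild-type replicate 2 when single arrays were left out, and after quantile normalization it was kept in all such omissions. Its call over fhf1 as deposited was lost at least without fhf1 replicate 1 and without fhf2 replicate 1 or 3. In those fits 0 genes were called higher than in fhf1. PUT4 was the only such fall, by -1.62 ± 0.27 against fhf1 (adjusted p = 2.56e-05) and by -1.09 ± 0.27 against fhf3 (adjusted p = 0.000661). It was 11.37 to 11.86 in fhf2, 12.58 to 13.96 in fhf1, 12.24 to 13.07 in fhf3 and 12.31 to 12.84 in wild-type, with fhf2 again apart from the others. After quantile normalization its call against wild-type was lost without fhf2 replicate 2 or 3 or wild-type replicate 3. The call of PUT4 against fhf1 as deposited was lost at least without fhf1 replicate 1, where 0 genes were called in either direction.

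After quantile normalization 2 rises and 6 falls differed from wild-type and from both other mutants. They add BIO5, a carrier of biotin precursors, among the rises, and LYS20, LYS9, ICY1, HPF1, a cell wall mannoprotein, and RGS2, a regulator of glucose-induced cAMP signalling, among the falls. LYS9 was at -0.56 in fhf2, 0.50 in fhf1 and 1.07 in fhf3 relative to wild-type on that scale, and LYS20 at -1.08, -0.31 and -0.05 in the same order. The mutants share the wild-type arrays, so the fhf2 values were set against theirs directly. LYS9 was lower than in fhf1 by -1.02 as deposited (adjusted p = 0.0456) and by -1.05 after quantile normalization (adjusted p = 0.000593). As deposited this call was lost at least without fhf1 replicate 1, where 0 genes were called.

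Some hexose transporter genes differed between fhf2 and fhf1. HXT13 was lower than in fhf1 by -1.62 ± 0.27 (adjusted p = 2.56e-05), with 11.05 to 11.39 in fhf2 and 12.23 to 13.18 in fhf1, and its difference from fhf3 of 0.47 as deposited did not pass (adjusted p = 0.157). HXT17, DSF1 and MAN2 were also lower than in fhf1 after quantile normalization (adjusted p = 0.000535, 0.00588 and 0.00597). SPS100 lay between the other mutants, lower than in fhf1 after quantile normalization by -1.10 (adjusted p = 0.000607) and higher than in fhf3 on that scale by 0.66 (adjusted p = 0.00168). Genes that were higher than in fhf1 as deposited without a call against wild-type include HXT3 by 1.15, the glucose repressor gene MIG1 by 1.03, and the G1 cyclin genes CLN2 by 1.19 and PCL1 by 1.18. Without fhf1 replicate 1, limma called 0 genes between fhf2 and fhf1 as deposited, and 182 passed an unadjusted p under 0.05. There were 3 calls without fhf2 replicate 1, 8 without fhf2 replicate 2, 2 without fhf2 replicate 3 and 30 without fhf1 replicate 3. Without fhf1 replicate 2 there were 14, of which 1 was higher and 13 lower in fhf2. Without fhf2 replicate 1 or 3, 0 genes were called higher, so HXT3, MIG1, CLN2 and PCL1 were not called there. At most 1 of these genes was called without fhf1 replicate 2.

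Against fhf3, many general stress genes were higher and many ribosome genes lower in fhf2 on both scales. Over all genes fhf2 was higher in 32.3% and lower in 2.51% as deposited, and higher in 22.3% and lower in 23.8% after quantile normalization. Of 54 general stress genes fhf2 was higher in 49 as deposited and 47 after quantile normalization, and lower in 0. Of 131 cytosolic ribosomal protein genes it was lower in 15 as deposited and 114 after quantile normalization, and higher in 0. Of 91 ribosome biogenesis genes it was lower in 22 and 84 on these scales, and higher in 0. Against fhf1, 0 of the general stress, ribosomal protein and ribosome biogenesis genes differed as deposited. After quantile normalization 1 stress gene was lower and 1 ribosomal protein gene higher in fhf2. Over all genes the shares against fhf1 were 0.173% higher and 0.139% lower as deposited, and 0.797% and 0.78% after quantile normalization. With shares this low, counts of 0 or 1 do not set these lists apart from all genes.

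**Figure D5:**
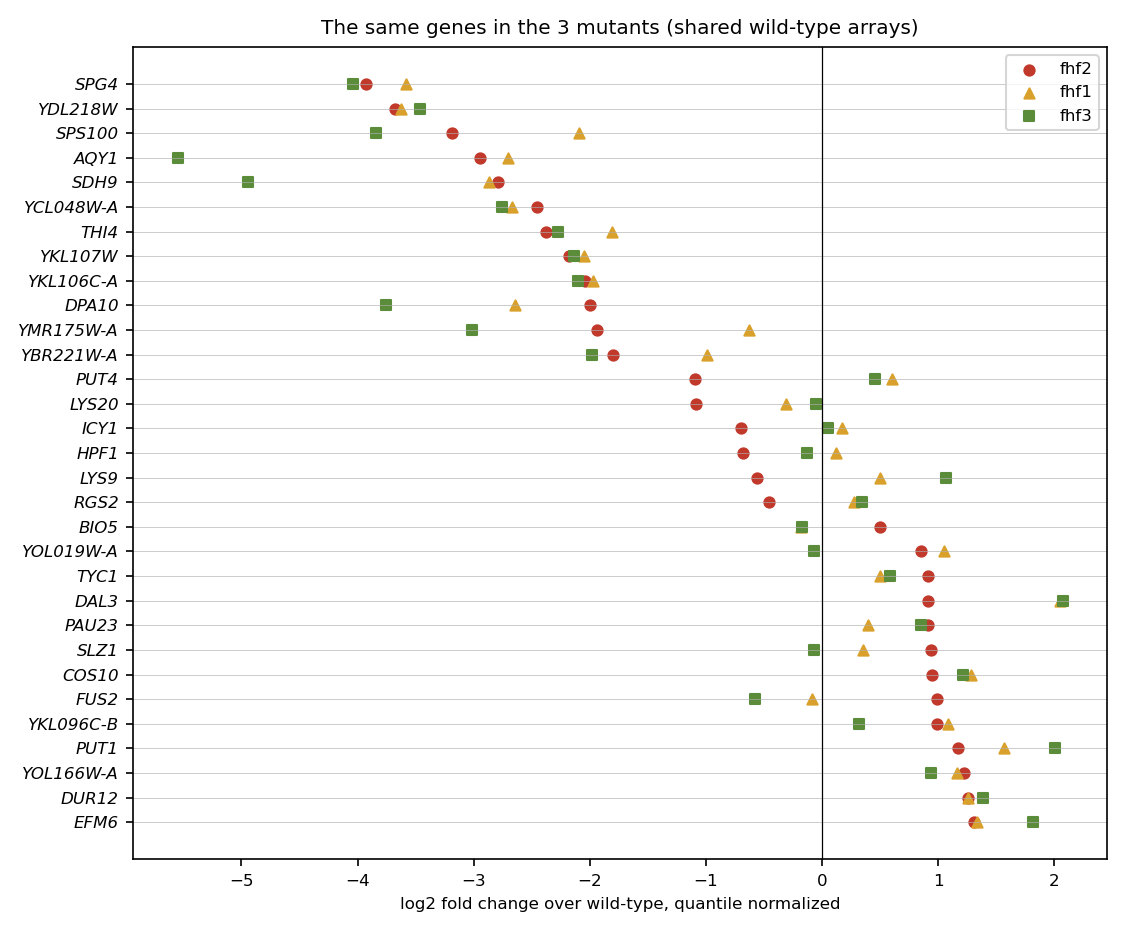
Log2 fold change over wild-type after quantile normalization in fhf2 (red circles), fhf1 (yellow triangles) and fhf3 (green squares) for the 12 largest falls and 12 largest rises of fhf2 and for the genes that differed from both other mutants, with the wild-type arrays shared. PUT4 is at -1.10 in fhf2, 0.61 in fhf1 and 0.45 in fhf3, and FUS2 at 0.99, -0.09 and -0.57.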

How the data were processed

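RNA of 12 cultures in 4 groups of 3 was read on arrays. Per the labels' protocols, each gene was covered by several 60-base probes. Not given in the sources used here were background correction, scaling and probe summary, and of tools the submitters' processing notes list limma without a version. Deposited by the authors were log2 values per array and a table of log2 fold changes, average log2 signals, t scores, p-values and adjusted p-values. Differences of group means of the deposited log2 values matched the fold changes in the authors' table within 5e-08, so the table rests on these arrays without further scaling. The authors' p-values are a 2-fold test, which was recomputed and not used otherwise. Of 5880 rows 5777 hold values, and 8 of these have no array value analysed here.

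limma 3.58.1 in R 4.3.3 was fitted to all 12 arrays with group means only, and Benjamini-Hochberg adjustment ran over 5769 genes, with calls at an adjusted p under 0.05 in two-sided tests. The fit on values as deposited is the main one. Since arrays were found not to share a scale, quantile normalization, foreseen as an alternative, is printed beside it. The number of arrays, 3 per group, limits the precision. The labels speak of hybridisation in triplicate and of 3 cultures per strain, and if values were averaged over hybridisations the spread is that between cultures. Other alternatives were the 2 groups alone, the replicate number as a block, omission of the dimmest 25% of genes, centring on the median gene, an intensity trend with robust prior, and omission of each array. The fit was also run on simulated data with independent noise per gene and a constant offset per array. Those data hold no other difference between arrays, so they cannot show how the fit handles one, and no result here rests on them.

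Members and the 41 gene lists were chosen with earlier results of these data known. The naming rule takes the 12 largest rises and falls among called genes whose arrays do not overlap, up to 4 called members per list, all maltose and hexose genes, and up to 8 per direction called against both other mutants. Members that passed only after quantile normalization were added to the same rule after their values were seen, as were the other genes named in the text, including all remaining falls and rises. Names come from a gene table of assembly R64, which lists 5771 of the systematic names and lacks 6, and no coordinates are printed since the files give no build. Python 3.11.15 and pandas 2.3.3 made the tables.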

Additional observations from a re-analysis of the deposited data

Results flagged for a closer look

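Of the genes called against wild-type, 4 changed in fhf2 by an amount that differed from the change in fhf1 on values as deposited, by limma's test of the difference. YMR175W-A was lower than in fhf1 by -1.16 (adjusted p = 0.0125) and higher than in fhf3 by 1.43 (adjusted p = 5.43e-06), so fhf2 lay between them. HXT13 was lower than in fhf1 by -1.62. PUT4 was lower than in fhf1 by -1.62 and than in fhf3 by -1.09. FUS2 was higher than in fhf1 by 1.22 and than in fhf3 by 2.03. In all, 38 of the 59 genes called against wild-type differed from fhf3. The 46 falls had a median log2 fold change over wild-type of -1.51 in fhf2 and of -2.76 in fhf3, over the same wild-type arrays. The arrays of fhf3 were dimmer than those of fhf2, with medians between 12.09 and 12.45. Groups of 3 arrays are too small for a test of single arrays that stand apart.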

How the results depend on the processing

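Of the 59 genes called against wild-type 34 passed in every alternative that tested them, apart from those chosen after seeing the data, and in no alternative did any of the 59 turn its direction. The count of 59 became 17 without the dimmest 25% of genes by the mean of all 12 arrays (6 rises, 11 falls). Only 20 of the 59 were tested there, and 17 of these passed, so most of the loss was of genes left out. The count was 377 centred on the median gene (90 and 287) and 388 after quantile normalization, and it ran from 39 to 104 as each array was left out. With quantile normalization and an array left out, chosen after seeing the data, it was 246, 213 and 224 without fhf2 replicates 1 to 3 and 334, 421 and 225 without wild-type replicates 1 to 3. The count past 2-fold was 9, with 0 without the dimmest 25%, where none of the 9 was tested, 21 centred, 22 after quantile normalization, 7 to 13 as arrays were left out, and, with both, 17, 19, 14, 19, 21 and 20 in the same order. Against fhf1 the count of 18 became 100 centred and 91 after quantile normalization, and ran from 0 to 30 as arrays were left out. Against fhf3 the count of 2007 became 3547 with 2 groups only, and ran from 1234 to 2197 as arrays were left out. Centring moved its split to 1493 higher and 1175 lower. With the replicate block the counts were 53 against wild-type, 9 past 2-fold, 13 against fhf1 and 1822 against fhf3, and with quantile normalization as well, chosen after seeing the data, 514, 24, 136 and 2830. The block on values as deposited ended the calls of POT1, LYS20, FMP48, MIN4, TYC1, DAL3 and YOL019W-A, and with quantile normalization it ended none of the 59. Same-numbered fhf2 and wild-type arrays correlated in their deviations from group means at 0.207, 0.182 and 0.047, so the numbers were not taken as a pairing. Medians of 12 of the 41 gene lists changed sign after quantile normalization and 13 when centred, and 0 to 15 did as single arrays were left out as deposited, most without wild-type replicate 1. The authors' deposited table holds the 2-fold test only and gave 9. The cause of these shifts was not tested, apart from the smaller number of genes or arrays where some were left out. No background signal or detection value was used here, so the level below which a gene is not measured is unknown.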
